A study of Mus musculus with 23 samples.

Results

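Myosin heavy chains are the motor proteins of the thick filament, and the heavy chain gene that a muscle fiber expresses defines its fiber type. Myh4 encodes the fastest limb heavy chain (type 2B), Myh1 the type 2X chain, Myh2 the type 2A chain and Myh7 the slow, oxidative type 1 chain, which is also a cardiac chain. Myh3 and Myh8 encode the embryonic and perinatal chains, which adult limb muscle keeps at low levels, Myh6 encodes the alpha chain of the heart, and Myh7b is a more distant sarcomeric relative. The levels of these 8 genes were examined in quadriceps muscle, a thigh muscle built mainly of fast fibers, of which a small deep part is oxidative. The genes were chosen by symbol and matched to 8 of the 55573 Ensembl gene identifiers in the deposited count table, a rule that uses no measured value.

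The mice were C57Bl6 animals (C57BL/6J in the study's methods) of 8 to 10 weeks, sampled 14 days after a pellet was placed under the skin of the neck. CORT mice received 50 mg corticosterone, the main glucocorticoid of rodents, mixed with 50 mg cholesterol, and VEH mice received 100 mg cholesterol. There were 6 Male_VEH, 6 Male_CORT, 6 Female_VEH and 5 Female_CORT mice, one library per mouse, and a mouse is named below by its sex and the number in its label. No mouse carried an engineered allele, all mice were fasted for 5 hours before collection, and the corticosterone was given to the whole animal. Each library held 20904150 to 21984477 counts on genes. The 5 skeletal muscle markers (Acta1, Ckm, Mb, Des and Actn2) were counted in every mouse and summed to 41352 to 105690 CPM (a gene's count relative to the TMM-scaled total of its library), while the 6 cardiac markers summed to 2.98 to 11.3 CPM and the natriuretic peptide gene Nppb was at 0 throughout. In whole muscle, fewer fibers of a type and less RNA per fiber cannot be told apart.

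Of the 8 genes, 5 lie side by side on the plus strand of chromosome 11 (mm10, GENCODE M21 annotation), in the order Myh3, Myh2, Myh1, Myh4 and Myh8, between 67078300 and 67308634. Myh6 (54941921 to 54966927) and Myh7 (54970684 to 54994626) are neighbors on the minus strand of chromosome 14, and Myh7b occupies 155611212 to 155634307 on the plus strand of chromosome 2. The windows before the starts of the 3 adult fast genes are shown because these genes made up nearly all heavy chain counts and because 1 run of 20 bases, in capitals, was common to all 3 (RefSeq, GRCm38.p6, plus strand, 140 bases each).
Myh4, chr11:67237589-67237728: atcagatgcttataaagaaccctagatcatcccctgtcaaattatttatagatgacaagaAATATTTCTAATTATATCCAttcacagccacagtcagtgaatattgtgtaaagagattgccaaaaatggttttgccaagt
Myh1, chr11:67199877-67200016: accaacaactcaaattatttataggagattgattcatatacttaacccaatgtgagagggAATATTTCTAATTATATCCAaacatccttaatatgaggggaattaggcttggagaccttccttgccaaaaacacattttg
Myh2, chr11:67170837-67170976: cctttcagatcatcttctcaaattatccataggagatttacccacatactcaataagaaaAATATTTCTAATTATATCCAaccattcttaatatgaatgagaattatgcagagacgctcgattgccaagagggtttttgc
The run began 163, 165 and 130 bases before the RefSeq start of Myh4, Myh1 and Myh2, and 3 of the 32851 promoter windows of the mouse annotation held it. TGTTCT, core letters of a glucocorticoid response element, was searched on both strands and found in 1 place among the member windows, on the minus strand before Myh4, while 18.97% of all windows of the same length held it. Such a match describes letters only.

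Myh4 dominated the heavy chain counts in all 23 mice. Summed over the 8 genes, heavy chains took 2.86% to 5.47% of all counts on genes. Myh4 held 74.1%, 90.2% and 99.1% of that sum as the lowest, median and highest value in Male_VEH, 73.3%, 90.6% and 98.4% in Male_CORT, and 81.4%, 90.6% and 98.9% in Female_VEH. In Female_CORT its share was 92.4% in F4, 90.4% in F6, 90.3% in F2, 63.5% in F8 and 55.7% in F10. The group medians therefore lay within 90.2% and 90.6%, while F8 and F10 fell below every other mouse. The stacked plot of shares shows that Myh1 and Myh2 filled nearly all of what Myh4 left.

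**Figure D1:**
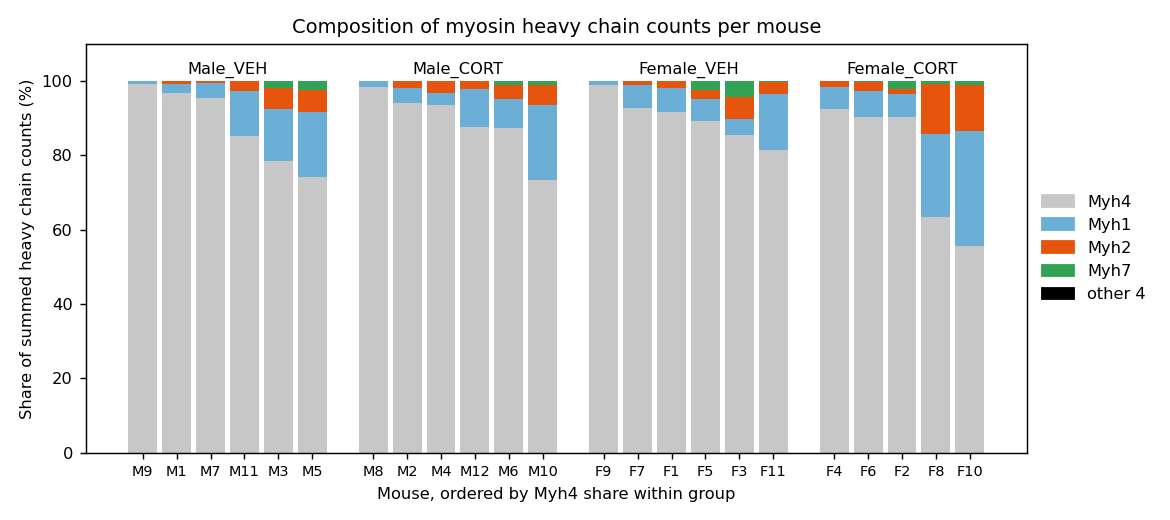
Share of summed heavy chain counts (y axis, percent) held by Myh4, Myh1, Myh2, Myh7 and the other 4 genes together, one bar per mouse, ordered by Myh4 share within each of the 4 groups. Myh4 is the largest block in every bar and falls to 55.7% in F10, where Myh1 reaches 30.8%.

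Myh1 held 0.825% to 17.7% of the sum in Male_VEH (median 8.17%), 1.55% to 20.2% in Male_CORT (median 5.85%) and 1.02% to 15.0% in Female_VEH (median 6.01%). In Female_CORT, Myh1 held 6.05% in F4, 6.18% in F2, 7.01% in F6, 22.1% in F8 and 30.8% in F10. Myh2 held up to 5.70% in Male_VEH, 5.51% in Male_CORT and 5.72% in Female_VEH, against 12.4% in F10 and 13.6% in F8. Slow Myh7 never exceeded 4.32%, the value of the vehicle female F3. Myh3, Myh6, Myh7b and Myh8 each stayed at or below 0.0298% in every mouse. One mouse in each of 3 groups carried almost pure Myh4, namely M9 (99.1%), F9 (98.9%) and M8 (98.4%), and in these mice Myh2 was 388, 622 and 498 counts. No Female_CORT mouse had fewer than 11560 counts of Myh2.

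Compared between genes per kilobase of merged exons, the order of median levels over all mice was Myh4 (5864 CPM per kilobase), Myh1 (404.1), Myh2 (118.6), Myh7 (1.24), Myh7b (0.404), Myh3 (0.214), Myh8 (0.205) and Myh6 (0.134). Myh4 exceeded Myh1 in 23 of 23 mice and Myh1 exceeded Myh2 in 22 of 23. Lower in the order the neighbors were less separate: Myh7b exceeded Myh3 in 16 mice, Myh3 exceeded Myh8 in 10, and Myh8 exceeded Myh6 in 14. Per kilobase of the longest coding transcript, Myh8 moved above Myh3, so the order of these low genes was not settled. The study counted uniquely placed reads only, and exact windows of 100 bases shared with another sarcomeric heavy chain made up 11.4% of Myh6, 11.2% of Myh7, 9.73% of Myh1, 9.17% of Myh2, 6.61% of Myh8 and 3.85% of Myh4. These percentages do not bound the error of the levels, and how far shared sequence shifted the levels of the closest relatives was not tested.

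Corticosterone moved no heavy chain gene past the threshold in either sex. With edgeR's quasi-likelihood test and an adjusted p under 0.01, 0 of 7 tested members were called in males, where 26.3% of the 13049 genes tested were called, and 0 of 7 in females, where 13.4% were called. Myh6 was too low to enter the test. At an unadjusted p under 0.05, 2 members passed in males (Myh3 and Myh8; all genes 48.2%) and 0 in females (all genes 38.6%). DESeq2 likewise called 0 at the adjusted threshold and passed 2 in males without adjustment, and limma-voom called 0 and passed 0 in males and 1 in females. None of the 7 members had CORT and VEH mice that did not overlap, against 21.9% of all genes in males and 7.72% in females.

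**Figure D2:**
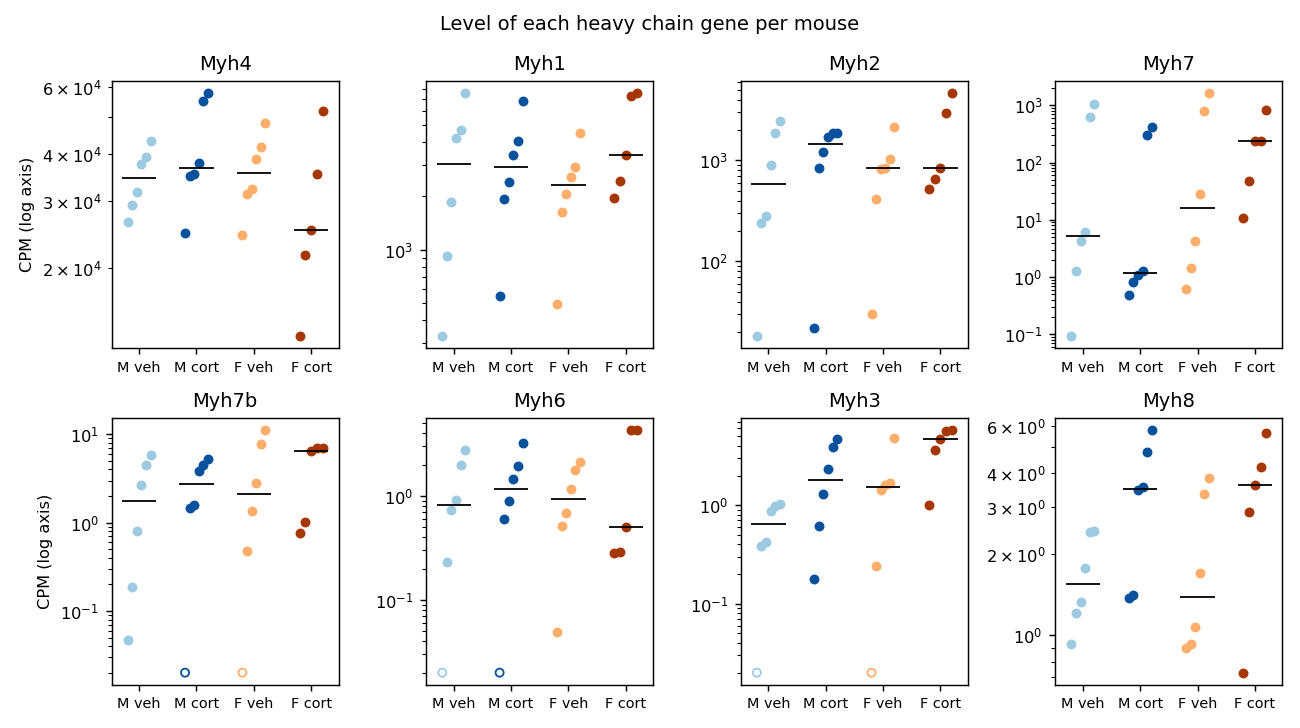
Level of each of the 8 heavy chain genes in CPM (log y axis, its range differing between panels), one point per mouse in the 4 groups, with a bar at the group median and open circles for mice at 0 counts. The groups overlap in every panel, and Myh7 spans 0.0940 to 1629 CPM.

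Myh4 was at 26469, 34621 and 43238 CPM (lowest, median, highest) in Male_VEH and at 24722, 36651 and 57821 CPM in Male_CORT. The males differed by a log2 fold change of 0.24 (SE 0.26, adjusted p = 0.478 by edgeR), a 95% interval of 0.814- to 1.72-fold. In Female_VEH, Myh4 was at 24417, 35505 and 48121 CPM. The 5 Female_CORT mice were at 51859 (F4), 35279 (F2), 25216 (F6), 21647 (F8) and 13225 CPM (F10). They spread from above the highest to below the lowest vehicle female, and the log2 fold change of -0.29 (SE 0.27, adjusted p = 0.459 by edgeR) had a 95% interval of 0.549- to 1.21-fold. As a share of heavy chain counts, Myh4 averaged 88.2% ± 10.5 (SD, n = 6) in Male_VEH and 89.1% ± 8.78 (SD, n = 6) in Male_CORT (two-sided exact permutation test, p = 0.885). In females the averages were 90.0% ± 6.07 (SD, n = 6) with vehicle and 78.5% ± 17.5 (SD, n = 5) with CORT (two-sided exact permutation test, p = 0.203). The smallest p that these permutations can give is 0.00216.

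Myh1 was at 327.0, 3036 and 7562 CPM in Male_VEH, at 550.3, 2895 and 6828 CPM in Male_CORT, and at 494.3, 2313 and 4506 CPM in Female_VEH. The Female_CORT mice were at 1955 (F6), 2416 (F2), 3396 (F4), 7321 (F10) and 7545 CPM (F8), so that 4 of 5 exceeded the vehicle median. The log2 fold change was -0.03 (SE 0.62, adjusted p = 0.974 by edgeR) in males and 0.94 (SE 0.65, adjusted p = 0.303) in females. Its share of heavy chain counts averaged 6.47% in Female_VEH and 14.4% in Female_CORT, a difference that did not pass the exact permutation test (p = 0.152). With each of the 11 females left out in turn, the unadjusted p of that test ran from 0.0476 to 0.357. The lowest came without F11, the vehicle female with the highest share, and the other 10 did not pass.

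Myh2 was at 18.2, 586.0 and 2436 CPM in Male_VEH, at 22.0, 1453 and 1872 CPM in Male_CORT, and at 30.4, 835.3 and 2156 CPM in Female_VEH. In Female_CORT the values were 525.6 (F2), 650.7 (F6), 840.7 (F4), 2948 (F10) and 4622 CPM (F8). Here again F8 and F10 stood above every vehicle female, and the other 3 lay within the vehicle range. The log2 fold change was 0.39 (SE 0.92, adjusted p = 0.767 by edgeR) in males and 1.12 (SE 0.97, adjusted p = 0.419) in females. The 95% intervals were wide, 0.346- to 4.93-fold in males and 0.540- to 8.73-fold in females. They included rises of several fold in both sexes, and falls to 0.346-fold in males and 0.540-fold in females.

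Slow Myh7 was nearly absent from most mice and abundant in a few in Male_VEH, Male_CORT and Female_VEH. Among Male_VEH mice it had 12662 and 20838 counts in M3 and M5 and 2 to 137 in the remaining 4. Male_CORT mice M6 and M10 had 8451 and 6412 counts, and the other 4 had 11 to 24. Female_VEH mice F3 and F5 had 37969 and 18610 counts, F11 had 636, and the rest had 13 to 87. In Female_CORT the counts were 18400 (F2), 5944 (F10), 4883 (F8), 1195 (F6) and 221 (F4). Thus 1000 counts or more were found in 2 of 6 mice in each of the first 3 groups and in 4 of 5 Female_CORT mice, a limit set after the values were seen. The fitted log2 fold change was -1.21 (SE 1.88, adjusted p = 0.634 by edgeR) in males and -0.58 (SE 1.96, adjusted p = 0.856) in females. The female direction rested on the tool: the CORT median of 236.2 CPM lay above the vehicle median of 16.1 CPM, and limma-voom gave a log2 fold change of 2.32 (adjusted p = 0.466).

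Embryonic Myh3 and perinatal Myh8, both at a few CPM, had the lowest p-values of the members in males. Myh3 was at 0, 0.645 and 1.03 CPM in Male_VEH and at 0.177, 1.80 and 4.65 CPM in Male_CORT, a log2 fold change of 1.81 (SE 0.80, unadjusted p = 0.0345, adjusted p = 0.0771 by edgeR) with 4 of 6 CORT males above the vehicle mean. In females it was at 0, 1.52 and 4.85 CPM with vehicle and at 1.01, 3.62, 4.68, 5.62 and 5.81 CPM with CORT (log2 fold change 1.33, SE 0.76, adjusted p = 0.203). Myh8 was at 0.928, 1.56 and 2.44 CPM in Male_VEH and at 1.38, 3.50 and 5.79 CPM in Male_CORT (log2 fold change 1.01, SE 0.46, unadjusted p = 0.0381, adjusted p = 0.0834 by edgeR). In females Myh8 had a log2 fold change of 0.80 (SE 0.47, adjusted p = 0.219). Both genes thus had positive fitted changes in both sexes that did not pass the adjusted threshold. Myh3 was at 0 counts in M9 and F9, which allows a share of up to 0.000356% and 0.000301% of their heavy chain counts, for counting error only.

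Myh7b ranged from 0 to 262 counts. Its log2 fold change was 0.26 (SE 0.97) for the male mice and 0.17 (SE 0.98) for the female mice. Myh6 ranged from 0 to 109 counts and had medians of 0.820, 1.18, 0.931 and 0.500 CPM in Male_VEH, Male_CORT, Female_VEH and Female_CORT. Of the other sarcomeric heavy chains, Myh15 was at 0.234 CPM or less and Myh13, the extraocular chain, at 8.50 CPM or less, and Myh13, the one tested, was not called.

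**Figure D3:**
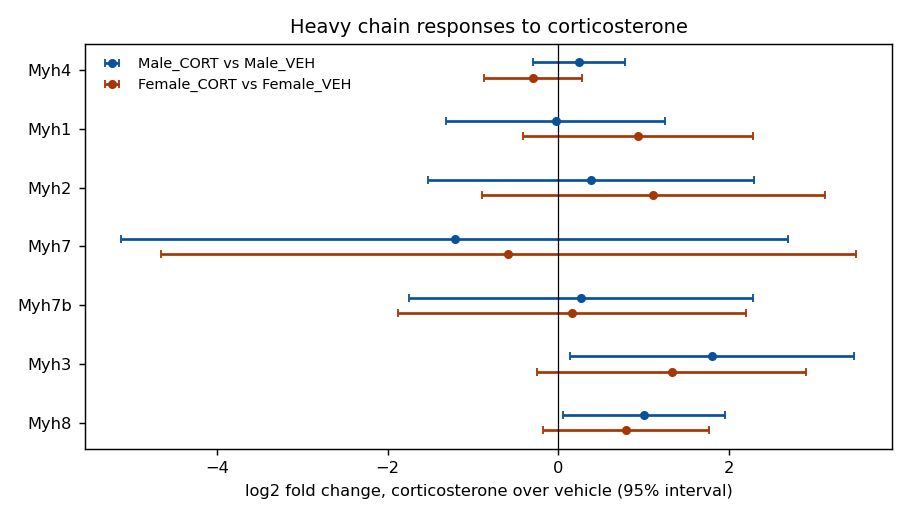
Fitted log2 fold change of CORT over VEH (x axis) with its 95% interval for the 7 tested heavy chain genes in males and females. The intervals of Myh3 and Myh8 in males lie above 0 before adjustment for multiple tests, and that of Myh7 runs from -5.12 to 2.69 in males.

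Males and females did not differ past the threshold at any member. Between Male_VEH and Female_VEH 0 of 7 members were called (all genes 0.958%), between Male_CORT and Female_CORT 0 of 7 (all genes 23.3%), and for the difference between the responses of the sexes 0 of 7 (all genes 0.690%). At an unadjusted p under 0.05, 0 members passed in each of these 3 comparisons, against 13.2%, 47.9% and 32.1% of all genes. None of the 7 had groups without overlap between vehicle mice (all genes 2.55%) or between CORT mice (all genes 12.4%). The lowest adjusted p was that of Myh4 between CORT mice, 0.179 by edgeR, with males higher by a log2 difference of 0.48 (SE 0.28). Its share was 89.1% in Male_CORT and 78.5% in Female_CORT (two-sided exact permutation test, p = 0.221), and that difference of 10.6 percentage points was 3.02 without M8 and F10. M8 had the highest share of Male_CORT (98.4%) and F10 the lowest of Female_CORT (55.7%), so leaving out both had to narrow the difference. The 16 permutation tests of shares, over 4 genes and 4 pairs of groups, gave unadjusted p-values from 0.152 to 0.924.

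The spread between mice of the same group set these genes apart from most others. The within-group SD of log2 CPM was 4.38 for Myh7, the highest of the 13049 genes tested, followed by the slow troponin genes Tnni1 (3.90) and Tnnc1 (3.84). Among the members, Myh7b ranked 19th (2.46), Myh2 41st (2.24), Myh3 136th (1.80), Myh1 262nd (1.28), Myh8 596th (0.870) and Myh4 2302nd (0.472), and the median gene had an SD of 0.241. The part of a member's variance that lay between groups was 5.69% to 29.7%, compared with 42.3% for the median gene. It was not corrected for the part that chance alone puts between groups. The SDs of the least abundant members include counting error.

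**Figure D4:**
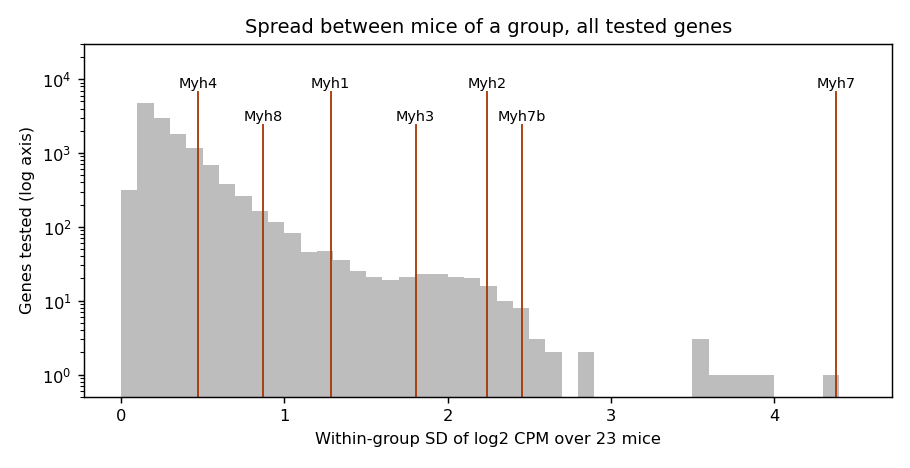
Number of tested genes (log y axis) by within-group SD of log2 CPM over the 23 mice (x axis), with vertical lines at the 7 tested heavy chain genes. Myh7 stands at the far right at 4.38, and Myh4 at 0.472 is the least variable member.

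Members varied between mice together with other genes once group means were removed. Each correlation below is across 23 mice, whose genes share a library, and is given as a description. The genes most like Myh7 were slow fiber partners: the slow troponins Tnnc1 (Pearson's r = 0.989), Tnni1 (0.986) and Tnnt1 (0.976), slow tropomyosin Tpm3 (0.955) and the slow calcium pump Atp2a2 (0.949). Myh2 was followed most closely by Mb, the oxygen store myoglobin (0.976), then by the phosphatase genes Ptpn3 (0.970) and Inpp5j (0.969), Ldhb, the lactate dehydrogenase of oxidative tissue (0.964), and the orphan receptor Esrrb (0.961). Myh1 was most like the mitochondrial ribosomal gene Mrps9 (0.912), Lmcd1 (0.906), Fam240a (0.900), the adenosine kinase gene Adk (0.898) and Mb (0.898). The closest to Myh4 were genes of glycogen breakdown and glycolysis, Pygm (0.950), Phka1 (0.942) and Pkm (0.928), with the fast myosin binding protein Mybpc2 (0.919) and Pgm2l1 (0.918). Among the members, Myh1 and Myh2 went together (0.881), and Myh7b went with Myh2 (0.892), Myh1 (0.811) and Myh7 (0.788). Myh3, at a few CPM, went with Myh7b (0.843), Myh2 (0.797), Myh1 (0.714) and Myh7 (0.700), and less with Myh8 (0.238). Myh4 ran opposite to Myh1 (-0.475), Myh2 (-0.352), Myh3 (-0.481) and Myh7 (-0.481).

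**Figure D5:**
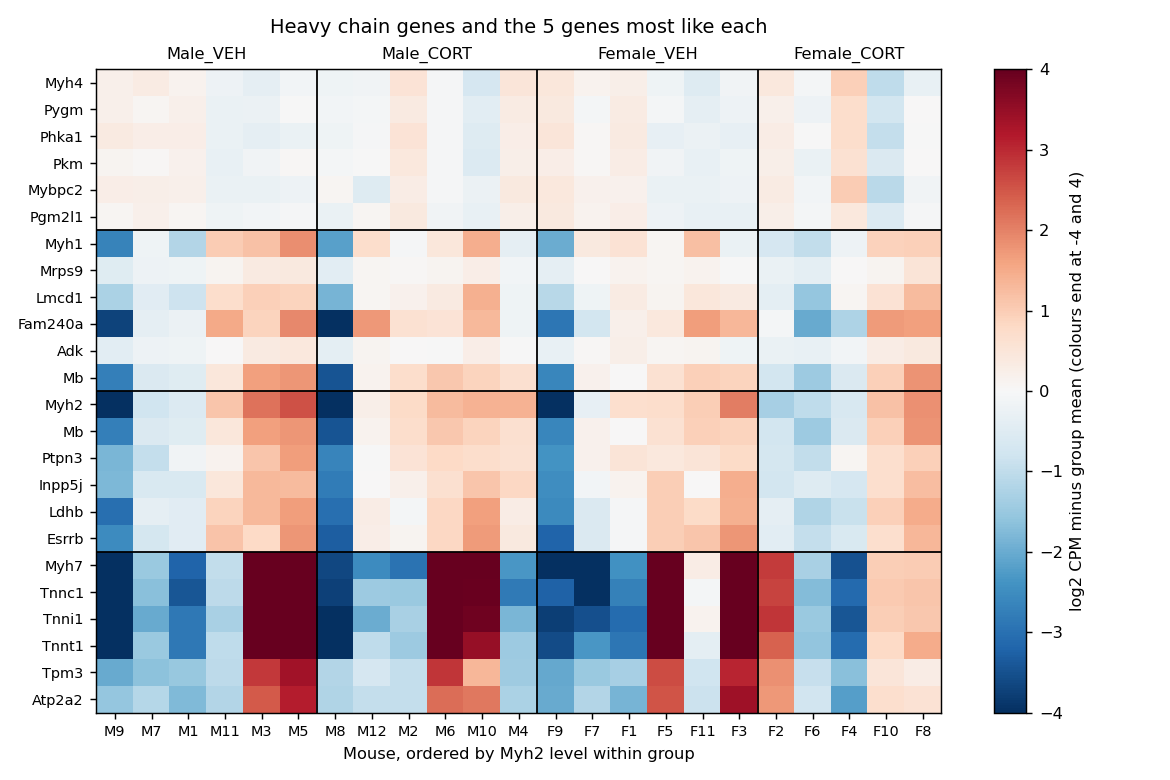
log2 CPM minus the group mean (color, ending at -4 and 4) of Myh4, Myh1, Myh2 and Myh7, each above the 5 genes most like it (rows), in the 23 mice ordered by Myh2 level within group (columns). M9, M8 and F9 are low for Myh1, Myh2 and Myh7, and the Myh7 block is high in 2 mice of each of the first 3 groups.

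The members Myh6, Myh7 and Myh7b house microRNAs in introns, shown because 2 of them share a seed (bases 2 to 8, in capitals). The third differs from that seed in base 8 only (RefSeq, GRCm38.p6).
miR-208a-3p, in Myh6: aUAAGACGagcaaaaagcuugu
miR-208b-3p, in Myh7: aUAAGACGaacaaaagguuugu
miR-499-5p, in Myh7b: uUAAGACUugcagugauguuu
The mRNA libraries do not measure mature microRNAs, and their gene entries held 0, 4 and 0 counts over all mice.

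A gene on the opposite strand between Myh1 and Myh4 did change. Myhas, annotated as an antisense RNA (chr11, 67211256 to 67237573, minus strand), shares exon bases with Myh1 and begins 239 bases before the RefSeq start of Myh4, so that the Myh4 window shown above lies between both starts. It was taken up after its values had been seen. Myhas was at 41.9, 69.1 and 107.3 CPM in Male_VEH and at 17.0, 23.4 and 40.1 CPM in Male_CORT. It was at 40.0, 66.4 and 88.9 CPM in Female_VEH, and the Female_CORT mice were at 9.26 (F10), 10.1 (F6), 12.2 (F4), 13.1 (F2) and 16.7 CPM (F8). CORT and VEH mice did not overlap in either sex, which also held for 21.9% of all genes in males and 7.72% in females. Myhas fell by 1.56 on the log2 scale in males (SE 0.25, adjusted p = 5.31e-05 by edgeR) and by 2.41 in females (SE 0.28, adjusted p = 6.47e-06), and was called in all 31 alternatives in each sex. Between CORT mice Myhas was called higher in males (log2 difference 1.05, SE 0.27, adjusted p = 0.00427 by edgeR, all genes 23.3%). That call held in 27 of 31 alternatives. Between vehicle mice it was not called (adjusted p = 0.811 by edgeR). The difference between the sexes' responses did not pass (log2 difference 0.85, SE 0.36, adjusted p = 0.111). Reads were counted by strand, and Myh1 and Myh4 on the other strand were not called. The smaller antisense gene upstream of Myh1, 9430073C21Rik, shares exon bases with Myh2 and was not called (adjusted p = 0.910 in males and 0.160 in females).

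The partner proteins of fast and slow fibers were read beside the heavy chains. Of 12 fast fiber partners, 3 rose and 3 fell in males, and 0 rose and 4 fell in females, where 26.3% and 13.4% of all genes were called in either direction. The light chain gene Myl1 fell in both sexes, by 1.94 and 1.72 on the log2 scale, as did the calcium buffers Pvalb (by 0.81 and 1.03) and Casq1 (by 1.02 and 0.86). The fast alpha-actinin gene Actn3 rose in males, from a median of 8294 to 25597 CPM (log2 fold change 1.61, adjusted p = 7.52e-06 by edgeR), with Atp2a1 (0.81) and Myoz1 (0.75). Of 11 slow fiber partners none was called in either sex, and some spread widely between mice: Tnni1 ran from 0.141 to 327.8 CPM in Male_VEH alone. The medians of the log2 fold changes were 0.04 in males and -0.35 in females for the fast list and -1.12 and -0.23 for the slow list, beside -0.02 and 0.04 over all genes.

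Of 18 regulators of heavy chain choice, 0 rose and 4 fell in males (median log2 fold change -0.06) and 0 rose and 3 fell in females (median -0.16), against 26.3% and 13.4% of all genes called in either direction. Eya1, a transcriptional coactivator at fast fiber genes, fell by 1.03 in males and 0.95 in females on the log2 scale. Mef2c, a transcription factor of muscle genes, fell by 0.78 and 0.80. Tead1 (-0.64) and Ppargc1b (-0.95) were called in males and Mafa (-1.10), a large Maf factor that activates Myh4, in females. Among genes of heavy chain folding and the thick filament, the M-band genes Myom1 (0.79) and Myom2 (0.76) rose in males, and the chaperone gene Hsp90aa1 (1.45) rose in females.

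Of the 4 ubiquitin ligases that act on the thick filament or its neighbors, Trim63 (log2 fold change 1.97), Fbxo32 (1.57) and Trim54 (0.58) rose in males, and Trim55 fell by 0.75 in females. Over all genes 26.3% were called in males and 13.4% in females. The list medians were 1.07 in males and 0.19 in females. Fbxo32, Trim54 and Trim63 were called higher in Male_CORT than in Female_CORT (all genes 23.3%), and 0 of 4 were called for the difference between responses. Of the 7 genes of denervation and regeneration, 5 were tested. Myog (1.76) and Gadd45a (1.06) rose in males (list median 0.38, all genes called 26.3%). In females 0 were called (list median -0.39, all genes called 13.4%). Gadd45a was also called lower in Male_VEH than in Female_VEH, and for the difference between the responses of the sexes. The 7 genes summed to 37.6 to 51.8 CPM in Male_VEH, 72.3 to 96.7 in Male_CORT, 68.7 to 126.3 in Female_VEH and 61.6 to 72.3 in Female_CORT. Myog is the myogenic factor whose program includes embryonic heavy chains. Whether Myog bore on the Myh3 values here was not tested. The 4 non-sarcomeric class II heavy chains (Myh9, Myh10, Myh11 and Myh14) were not called for CORT in either sex, with list medians of 0.26 and 0.33.

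RNA of other cell types varied between mice as well. The 6 hepatocyte markers, all counted in every mouse, summed to 15.2 to 1412 CPM in Male_VEH, 38.3 to 2372 in Male_CORT, 32.0 to 295.8 in Female_VEH and 47.1 to 2343 in Female_CORT, with the peaks in M8 and F10. The 6 adipocyte markers summed to 215.7 to 940.2, 275.8 to 859.6, 275.2 to 2449 and 258.2 to 6262 CPM in the same order, and of these Lep was at 0 in some mice and rose in Female_CORT (log2 fold change 6.79). F8, with its low Myh4 share, had the lowest adipocyte sum of its group, 258.2 CPM, and a hepatocyte sum of 188.0 CPM, while F10 had 2978 and 2343 CPM. The 4 Schwann cell markers summed to 18.7 to 180.2 CPM over all mice, the 4 macrophage markers to 21.8 to 92.4 CPM and the 4 smooth muscle markers to 57.3 to 358.1 CPM, and none of these 12 was called for CORT in either sex. The 4 erythrocyte markers rose in both sexes, with log2 fold changes of 1.22 to 1.61 in males and 1.40 to 1.58 in females. The part of these in the heavy chain values was not tested. Values without M8 and F10 cannot decide it, because both mice were also extremes of the Myh4 share in their groups. M9 (1412 CPM of hepatocyte markers), M12 (1391 CPM) and F6 (1069 CPM) stayed in.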

How the data were processed

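Quadriceps RNA of 23 mice was sequenced by the study as stranded mRNA libraries (100 base paired reads). Per the labels and the study's methods, the authors aligned reads with STAR (2.7.3a) to mm10 and made the deposited raw count of reads per gene with HTSeq (0.12.4), by strand, from uniquely placed reads and Ensembl release 97. The 5 summary entries that name no gene were left out (10.7% to 15.3% of read pairs). The members and lists were chosen with earlier results of these data known.

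From these counts, edgeR (4.0.16) TMM factors, CPM and the quasi-likelihood test were computed in R (4.3.3), with 1 mean per group over 23 mice, keeping the 13049 genes that exceeded 20 size-factor scaled counts in 4 mice or more of any 1 group, the study's filter. Adjusted p-values are Benjamini-Hochberg over all these genes, with a threshold of 0.01. Log2 CPM used a prior count of 1. Likeness is Pearson's r of log2 CPM minus group means, naming the 5 highest genes for each of Myh1, Myh2, Myh4 and Myh7. Shares are percent of the summed counts of the 8 members, compared by exact permutation tests, unadjusted. The named genes were the 8 members and genes of the lists on which a count turned. Alternatives were DESeq2 (1.42.0), limma-voom (3.58.1), other filters and scalings, a log2 fold change limit of 1, each sex alone, a replicate block, each mouse left out and, chosen after seeing the data, leaving out M8 and F10 (highest hepatocyte marker sums) and shares per longest coding transcript. The scripts were tested on simulated data. Of the identifiers, 55480 matched GENCODE M21. Protein sequences were not used here. A result for 1 gene of the folding and thick filament list, and that list's counts, are not reported here.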

Additional observations from a re-analysis of the deposited data

Results flagged for a closer look

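In 64 groups of values examined for a sample standing apart (the gap of the highest or lowest mouse to its neighbor, divided by the group's range, against Dixon's 95% value), 2 stood out, and chance alone flags about 1 in 20 groups. Myh7 in Female_CORT was at 836.7 CPM in F2 and at 10.6 to 240.3 CPM in the other 4 mice. Myh3 in Female_VEH was at 4.85 CPM in F3 and at 0 to 1.68 CPM in the other 5, and F3 was also the mouse with the highest Myh7 level of its group, 1629 CPM.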

How the results depend on the processing

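The count of members past the threshold stayed at 0 in each comparison under every alternative run except one. With the mouse number as a replicate block, Myh4 was called between Male_CORT and Female_CORT (1 member, log2 difference 0.60, adjusted p = 0.00970 by edgeR, against 0.0228 to 0.369 with 1 mouse left out). Nothing in the labels ties same-numbered males and females. Over 11 numbers their deviations from group means had positive correlations for every vehicle number, 0.0846 (number 1) to 0.477 (number 7). For CORT numbers the correlations ran from -0.377 (number 8) to 0.242 (number 4). Whether the numbers pair the mice was not tested. The block took the call counts over all genes from 3043 to 2262 between CORT mice, from 125 to 137 between vehicle mice and from 90 to 97 for the difference between responses.

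Members' directions that turned were all of changes that did not pass. Under the block, Myh2 went to -0.35 between vehicle mice, 0.0011 between CORT mice and 0.35 for the difference between responses, where Myh3 went to -0.13, Myh7b to -0.16 and Myh8 to -0.10. Under limma-voom, Myh1 in males went to 0.25, Myh7 in females to 2.32, Myh2 between vehicle mice to -0.30, and Myh3 and Myh7b for the difference between responses to -0.48 and -0.79. Myh8 between CORT mice, at -0.0078, turned to 0.012 with DESeq2, 0.057 with limma-voom, 0.0097 with filterByExpr, 0.047 without a filter and 0.012 with median-of-ratios scaling. Without M8 and F10, the male difference became -0.9995 percentage points for the Myh4 share and 0.534 for the Myh1 share, and the log2 values became 0.19 (Myh1, males), -0.067 (Myh7b, females) and 0.43 (Myh8, CORT mice). The cause was not tested.

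Leaving out each mouse in turn, the share differences in males ran from -1.96 to 4.02 percentage points for Myh4, -3.21 to 1.11 for Myh1 and -0.286 to 0.895 for Myh2. In females they ran from 3.88 to 10.1 for Myh1 and from -0.647 to 0.327 for Myh7. For Myh1 the exact permutation test gave p = 0.0476 without F11 and up to 0.357 without another mouse. Between vehicle mice they ran from -3.97 to 1.04 for Myh4, -0.516 to 0.782 for Myh2 and -0.747 to 0.247 for Myh7. The log2 values of members that turned ran from -0.40 to 0.41 (Myh1) and -0.015 to 0.77 (Myh7b) in males, from -1.62 to 0.71 (Myh7) and -0.094 to 0.83 (Myh7b) in females, and from -0.42 to 0.60 (Myh2), -0.15 to 0.038 (Myh4), -1.71 to 0.74 (Myh7) and -0.37 to 0.081 (Myh8) between vehicle mice. Between CORT mice they ran from -0.86 to 0.0081 (Myh2) and -0.27 to 0.27 (Myh8). For the difference between responses they ran from -0.24 to 0.73 (Myh3), -1.93 to 0.53 (Myh7), -0.56 to 0.60 (Myh7b) and -0.089 to 0.49 (Myh8).

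Over all genes, the 1748 calls in females became 550 with females fitted alone, 995 without F6, 1118 without F2 and 1167 without M8 and F10. The 3043 calls between CORT mice became 1866 without F10, 2004 without F6 and 1382 without M8 and F10. The 125 calls between vehicle mice became 284 with DESeq2. The 90 calls for the difference between responses became 896 with DESeq2, 10 without a filter, and between 1 (without M3) and 895 (without F8) with 1 mouse left out. With 5 or 6 mice a group, the 95% intervals of Myh2, Myh7 and Myh7b for CORT included rises of several fold in both sexes. The absence of a call therefore does not show the absence of such a change.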
